A study of Mus musculus with 2 samples.

Results

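Aldosterone-responsive sodium and potassium transport of the colon was followed through 7 genes chosen by name, out of 17305 genes with a value: the epithelial sodium channel subunits Scnn1a, Scnn1b and Scnn1g, the colonic proton-potassium pump Atp12a, the pump regulator Fxyd4, the steroid-inactivating enzyme Hsd11b2 and the kinase Sgk1. They were chosen with earlier results of these data known. All 7 were measured, each by 1 probe set that the platform's annotation gives to that gene alone. The comparison asks how far this colonic transport programme is found in small intestinal epithelium that has lived in the colon. The graft came from small intestinal cells of EGFP-transgenic mice on a C57BL6 background, which were cultured for 7 days as organoids, instilled into the colonic lumen of C57BL6 recipients and taken 4 weeks later. The control was normal colonic epithelium of a C57BL6 control mouse. Both were cut out by laser microdissection, and RNA from serial sections was pooled into 1 array per group, with the specimen of highest RNA integrity chosen for each. The labels used here give no age or sex of the mice and no segment of the colon. There is no replicate, so no difference was tested, and ungrafted small intestine was not analysed here.

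In the distal colon, aldosterone raises sodium uptake and potassium turnover of the surface epithelium. The hormone binds the mineralocorticoid receptor, which switches on genes that bring more epithelial sodium channels to the apical membrane, where sodium enters along its gradient and is pumped out by the basolateral sodium pump. Cortisol and corticosterone bind the same receptor, and Hsd11b2 keeps them away from it by oxidising them.

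All 7 genes had a lower value on the graft array than on the colon array, and 6 of the 7 were lower by 2-fold or more. None was higher, and the median difference, graft minus colon, was -1.86 on the log2 scale against 0 over all 17305 genes. By the same rule 3.09% of all genes were lower and 1.93% were higher. Among the 9392 genes whose higher value was at or above 5.48, the median over all genes and both arrays, 5.68% were lower and 3.55% higher, and among the 8675 genes whose colon value was at or above that median 6.14% were lower. At a 4-fold threshold 3 of the 7 were lower, against 1.37% of the 9392 genes. Because the 7 were not chosen blind to these data, the shares describe the background and test nothing. The 2-fold shares are also the background for the list counts below, where a 0 in a short list is close to them. Of the 7, 6 reached the median level and Scnn1b did not. The values carry no detection call, so dim signal and background look alike. The 20th percentile of all probe sets, 4.75 on the graft array and 4.74 on the colon array, marks the dim end of each array. In epithelium taken as a whole, fewer cells of a type and less RNA per cell cannot be told apart.

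**Figure D1:**
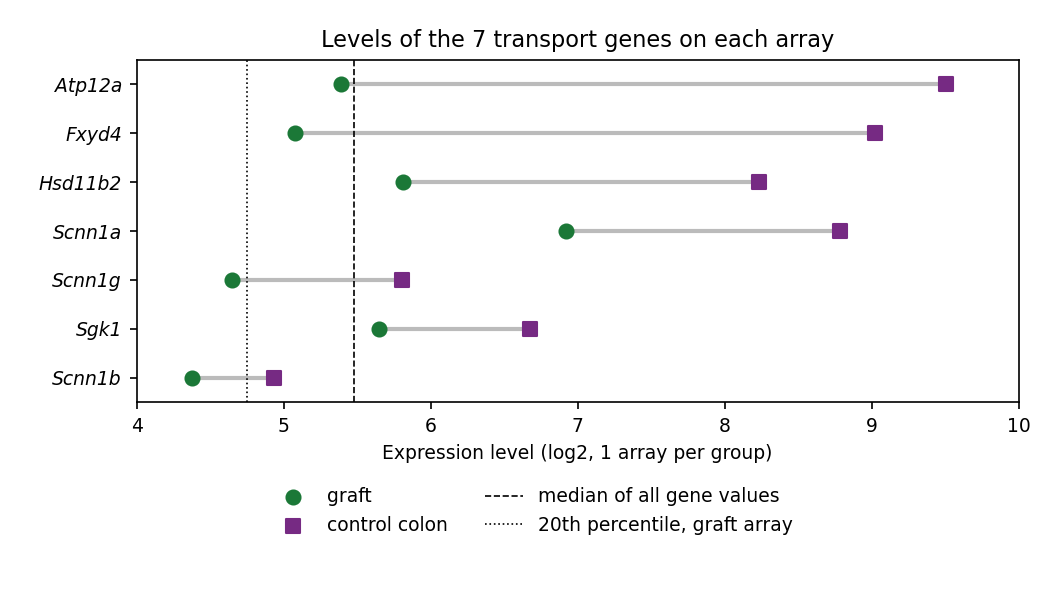
Log2 expression level of each of the 7 genes (rows) on the graft array (circles) and the control colon array (squares), with 1 array per group and therefore no error bars. Every circle lies left of its square, with differences from -0.56 for Scnn1b to -4.12 for Atp12a, and the graft values of Scnn1b and Scnn1g lie below the 20th percentile of the graft array (dotted line).

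Atp12a and Fxyd4, a potassium pump and a pump regulator, differed most. Atp12a (probe set 10415446), the catalytic subunit of the apical pump that takes up potassium in exchange for protons in the distal colon, was at 5.39 on the graft array and 9.51 on the colon array. Its difference of -4.12, or 17.4-fold, ranked 15th from the lowest among the 9392 genes. Fxyd4 (probe set 10547206), also called CHIF, is a small membrane protein that raises the affinity of the sodium pump for sodium and is induced by aldosterone in the colon. It was at 5.08 on the graft array and 9.03 on the colon array, a difference of -3.95 or 15.4-fold that ranked 17th. In the colon both genes were more than 4 log2 units above the 20th percentile. In the graft both were below the median level of 5.48 but above the 20th percentile, by 0.64 and 0.33. The sizes of these folds may therefore be limited by the dim end of the array. The gap between the 2 differences, 0.17, was smaller than the SD of 0.48 between the differences of different probe sets of 1 gene (586 genes with both brightest probe sets at the median level), which is the only technical spread in these data.

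Hsd11b2 (probe set 10574780), the enzyme that protects the mineralocorticoid receptor, was at 5.81 on the graft array and 8.23 on the colon array. That difference of -2.42, or 5.37-fold, was the 84th lowest of the 9392. Both values were above the median level.

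The sodium channel is built of an alpha, a beta and a gamma subunit, and in the colon the beta and gamma subunits are the ones that steroid hormones are known to raise most. Scnn1a (probe set 10541885), the alpha subunit, was at 6.92 on the graft array and 8.79 on the colon array, a difference of -1.86 or 3.64-fold. Both values were above the median level, and the difference ranked 147th from the lowest. Scnn1g (probe set 10557111), the gamma subunit, was at 4.65 on the graft array and 5.80 on the colon array, a difference of -1.16 or 2.23-fold. Its graft value lay 0.10 below the 20th percentile of that array, so the fold is limited by the dim end of the array. Scnn1b (probe set 10557124), the beta subunit, was at 4.38 on the graft array and 4.94 on the colon array, a difference of -0.56 or 1.47-fold. It stayed below the median level on both arrays and only 0.20 above the 20th percentile in the colon, so these arrays hold little signal for the beta subunit in either tissue and cannot show how it differed.

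Sgk1 (probe set 10362073), the serum- and glucocorticoid-regulated kinase that slows the removal of sodium channels from the membrane, had a small difference. It was at 5.65 on the graft array and 6.67 on the colon array, a difference of -1.03 or 2.04-fold, just past the 2-fold threshold. With quantile normalization of the 2 arrays the difference was -0.98, short of 2-fold, and 5 of the 7 genes were then called. With a pseudocount of 16 on the linear scale, Sgk1 was at -0.84 and Scnn1g at -0.81, and 4 of the 7 were called. In order of difference, Scnn1g and Sgk1 were 0.13 apart and Sgk1 and Scnn1b 0.47, both less than the SD of 0.48 between probe sets. Fxyd4 and Hsd11b2 were 1.53 apart, Hsd11b2 and Scnn1a 0.56, and Scnn1a and Scnn1g 0.71, each more than the SD.

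Sgk1 also responds quickly to stress and to the time of day, and genes for both were read beside it. Of 10 measured immediate early and heat shock genes, 2 were 2-fold higher or more and 0 were 2-fold lower, with a median difference of 0.25. Atf3, a stress-induced transcription factor, differed by 1.41, the chaperone gene Hsph1 by 1.03 and Ier2 by -0.84. Of 14 circadian clock genes, 3 were lower by 2-fold and 1 was higher, with a median of -0.21. Among all genes at the median level 5.68% were lower and 3.55% higher, so the counts of 0 and 1 are close to those shares. The clock repressor Nr1d1 differed by -2.46, Dbp by -1.35 and Nfil3 by 1.91. The part of handling and of the time of collection in the Sgk1 value was not tested.

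**Figure D2:**
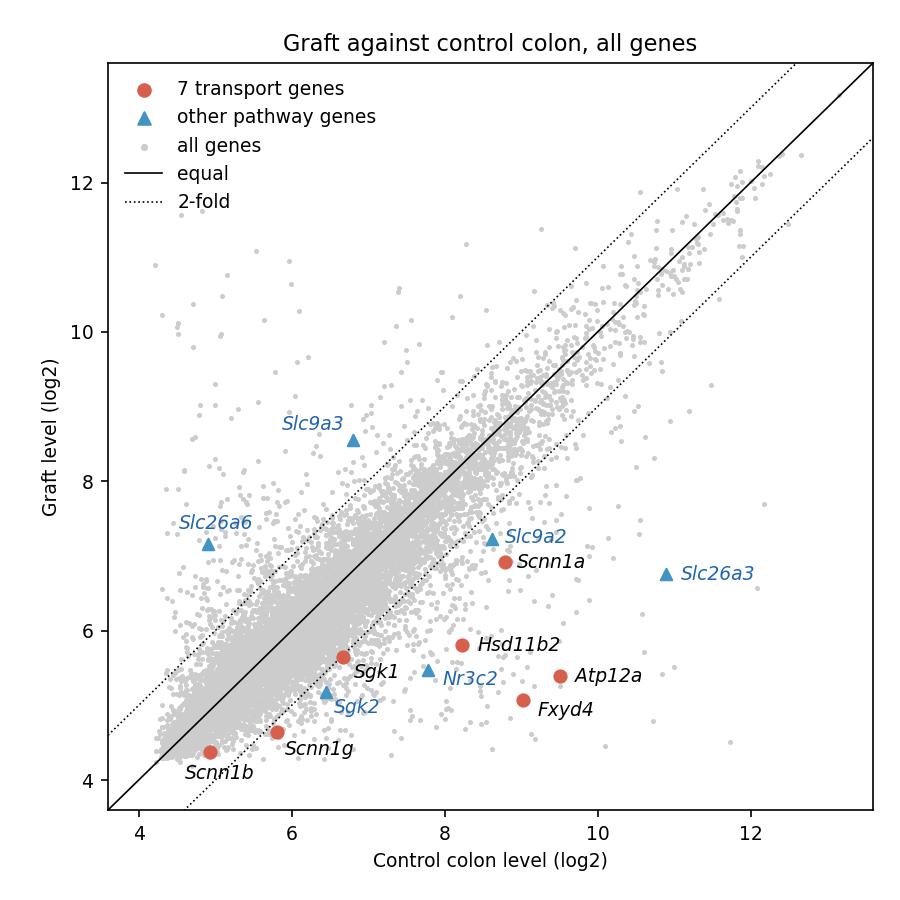
Log2 level in the graft (vertical axis) against the control colon (horizontal axis) for all 17305 genes (grey), the 7 transport genes (circles) and 6 other pathway genes (triangles), with the line of equality and dotted lines at 2-fold. Atp12a and Fxyd4 lie far below the lower dotted line, Sgk1 just past it and Scnn1b inside it, while Slc9a3 and Slc26a6 lie above the upper one.

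The DNA upstream of the members' transcript starts is shown because the mineralocorticoid and the glucocorticoid receptor bind the same palindromic element, AGAACANNNTGTTCT. RefSeq windows (build GRCm38.p6) matched 4 of the 7 members, with 1 start each for Scnn1b, Scnn1g and Fxyd4 and 6 for Sgk1. The 250 bases before each start were searched on both strands for the whole element of 15 bases and for its 6-base arm, AGAACA or TGTTCT. The arm overlaps the whole element by construction. In the lines that follow, read 5′ to 3′ along the gene's strand, capitals mark every arm and the whole element. The Sgk1 line is start 5 of its 6 listed starts.
Sgk1, chr10:21993640-21993889, plus strand: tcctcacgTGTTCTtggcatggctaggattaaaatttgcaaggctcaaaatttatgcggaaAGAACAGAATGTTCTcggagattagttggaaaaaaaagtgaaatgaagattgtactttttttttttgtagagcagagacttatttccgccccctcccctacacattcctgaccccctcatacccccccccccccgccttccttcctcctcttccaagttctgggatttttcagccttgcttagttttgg
Fxyd4, chr6:117937336-117937585, minus strand: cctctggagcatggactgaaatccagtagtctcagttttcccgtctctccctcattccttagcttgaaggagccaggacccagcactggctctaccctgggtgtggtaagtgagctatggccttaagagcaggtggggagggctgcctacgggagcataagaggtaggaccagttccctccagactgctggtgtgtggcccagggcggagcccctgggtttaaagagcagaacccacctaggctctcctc
Scnn1g, chr7:121734229-121734478, plus strand: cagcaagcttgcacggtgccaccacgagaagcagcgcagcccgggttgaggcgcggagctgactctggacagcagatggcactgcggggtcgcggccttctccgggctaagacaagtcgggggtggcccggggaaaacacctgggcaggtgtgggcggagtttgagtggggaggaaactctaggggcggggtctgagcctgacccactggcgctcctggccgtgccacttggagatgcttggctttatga
Scnn1b, chr7:121864788-121865037, plus strand: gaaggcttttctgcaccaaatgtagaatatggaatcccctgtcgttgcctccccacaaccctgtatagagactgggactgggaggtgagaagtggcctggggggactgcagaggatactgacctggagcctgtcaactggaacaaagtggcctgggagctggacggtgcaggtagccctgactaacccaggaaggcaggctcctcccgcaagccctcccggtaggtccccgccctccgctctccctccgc

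The whole element was found once among these members, in the Sgk1 window, as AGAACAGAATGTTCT at chr10:21993701-21993715. It spans bases 189 to 175 before that start and begins 965 bases before start 6. Of 32851 RefSeq windows of the same length, 3 (0.00913%) hold it, and of the 16927 windows of genes on the array the Sgk1 window is the 1 that does. A 6-base arm occurs in 16.1% of all windows and in 3 of the 6 Sgk1 windows, and these letters were not in the windows printed for Fxyd4, Scnn1g and Scnn1b. A match describes the sequence alone. The probe set for Sgk1 gives 1 value for the gene, so which start was used in either tissue was not measured.

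**Figure D3:**
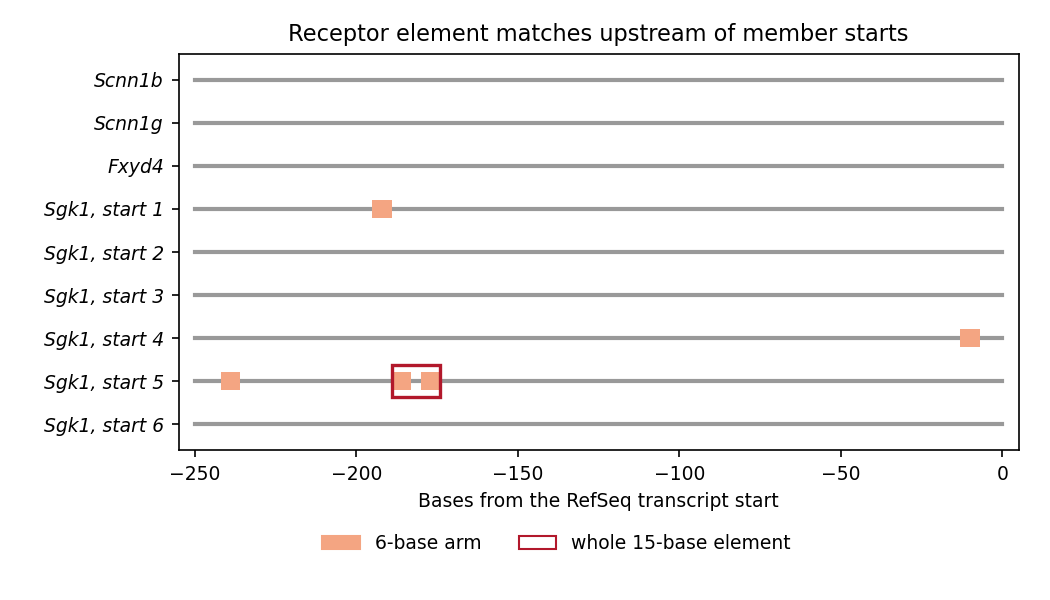
Position of receptor element matches in the 250 bases before each RefSeq transcript start of Scnn1b, Scnn1g, Fxyd4 and Sgk1 (rows; horizontal axis in bases from the start). Filled boxes are 6-base arms and the open box is the whole 15-base element, which appears once, at Sgk1 start 5, 189 to 175 bases upstream.

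The receptor itself was lower in the graft. Nr3c2, the mineralocorticoid receptor, was at 5.47 on the graft array and 7.78 on the colon array, a difference of -2.31 or 4.96-fold that ranked 91st from the lowest. Nr3c1, the glucocorticoid receptor, was at 6.71 and 7.12, a difference of -0.40. Of 7 measured genes for steroid receptors and hormone gating, Nr3c2 and Fkbp5 were 2-fold lower or more and 0 were higher, and the median was 0.065. Fkbp5, a receptor co-chaperone that is itself a steroid target, was at 5.13 and 6.50, a difference of -1.36. The co-chaperone Fkbp4 differed by 0.81 and the chaperone Hsp90aa1 by 0.33.

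Transcripts that steroid receptors are known to induce were lower in part. Of 11 such genes, 3 passed 2-fold towards lower values in the graft and 0 towards higher ones, with a median of -0.42. Among genes at the median level, which 10 of the 11 reached, 5.68% were lower and 3.55% higher. Over all genes the shares were 3.09% and 1.93%. Ndrg2, an aldosterone-induced gene of kidney and colon, was at 7.08 on the graft array and 8.82 on the colon array, a difference of -1.74. Cnksr3, a scaffold that promotes sodium channel activity, was at 5.35 and 6.50, a difference of -1.15, and Fkbp5, also in the receptor list, was the third. Usp2, a deubiquitinase, differed by -0.89. Tsc22d3, the glucocorticoid-induced leucine zipper protein GILZ, was at 5.60 and 5.90, a difference of -0.30, and the clock gene Per1 had the same value, 5.59, on both arrays. Identical values on both arrays occurred for 12.1% of all probe sets, and none of the 7 transport genes was among them.

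Genes that act on the channel after it is made were read next. Of 17 kinases, ubiquitin ligases and partners, 3 passed 2-fold towards lower values and 0 towards higher ones, with a median of -0.39. Among the 9392 genes at the median level, which all 17 reached, 5.68% were lower and 3.55% higher. With a pseudocount of 16 on the linear scale 1 of the 17, Ndrg2, passed. Ndrg2, Cnksr3 and Usp2 are in both this and the steroid-induced list. Besides Ndrg2 and Cnksr3, the gene past 2-fold was Sgk2, a kinase related to Sgk1, at 5.17 on the graft array and 6.45 on the colon array, a difference of -1.27. Nedd4l, the ubiquitin ligase that removes the channel and is held back by Sgk1, was at 6.44 and 7.26, a difference of -0.82. Wnk2 and the adaptor Ywhae differed by 0.78 and 0.66. Channel-cleaving proteases open the channel by removing inhibitory stretches of the alpha and gamma subunits. Of 7 measured proteases and inhibitors, 0 passed 2-fold in either direction, with a median of -0.35. The membrane-anchored protease Prss8 was at 6.50 on the graft array and 7.01 on the colon array, and its difference was -0.51. The inhibitors Spint1 and Spint2 differed by -0.80 and -0.35, and the proteases Tmprss2, Furin and St14 by -0.36, 0.23 and 0.084.

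The beta subunits of the sodium pump, basolateral partners of the transporters, differed little. Atp1b1, the beta subunit of the sodium pump, which can also pair with Atp12a, was at 10.63 on the graft array and 10.84 on the colon array, a difference of -0.21. Atp1b3 was at 6.57 and 6.75. Of 6 measured sodium pump and gastric proton pump subunits, 0 passed 2-fold and the median was -0.093. Of these 6, 4 were below the median level on both arrays, 3 further genes of the list were not analysed here, and the gastric subunit Atp4a had the same value, 4.72, on both arrays. Of the 6 other FXYD proteins, which also regulate the sodium pump, 0 passed 2-fold and the median was -0.025. Fxyd3 was at 9.01 and 8.92, Fxyd5 differed by 0.51, Fxyd6 by -0.54 and Fxyd1 by -0.059. The difference of -3.95 for Fxyd4 was outside the range of these relatives, which ran from -0.54 to 0.51. Of the 6 relatives, 2 (Fxyd2 and Fxyd7) were below the median level on both arrays. Fxyd1, Fxyd5 and Fxyd6 were at 5.48, 5.78 and 6.19 in the colon, and the lowest value on the graft array was 4.19. Only Fxyd3 therefore had room to show a fall of that size, so the range of the relatives says little about the others.

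Other degenerin-family channels, the acid-sensing relatives of the sodium channel, were below the median level on both arrays for all 5 genes, with 0 past 2-fold and a median of 0. Calcium-activated potassium channels carry potassium out of the cell, on the apical side through Kcnma1, which aldosterone raises in the colon. Kcnma1 was at 5.16 on the graft array and 5.77 on the colon array, a difference of -0.61. Of the 6 genes of that list, 0 passed 2-fold, the median was -0.070, and Kcnn4 and Kcnmb3 differed by -0.20 and 0.032. The other 3 of the 6 were below the median level and the 20th percentile on both arrays, so they could show little difference.

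Electroneutral sodium absorption, in which sodium is exchanged for protons beside chloride-bicarbonate exchange, went in both directions. Of 11 measured genes, 2 passed 2-fold in each direction, with a median of -0.10. Among the 9392 genes at the median level, which all 11 reached, 5.68% were lower and 3.55% higher. Slc9a3, the main apical sodium-proton exchanger of the intestine, was at 8.55 on the graft array and 6.80 on the colon array, 3.37-fold higher in the graft. Slc9a2, a second apical exchanger, was at 7.23 and 8.62, 2.63-fold lower. The chloride-bicarbonate exchanger Slc26a6 was at 7.16 and 4.91, 4.77-fold higher, whereas Slc26a3 was at 6.76 and 10.90, 17.6-fold lower. The colon value of Slc26a6 lay only 0.17 above the 20th percentile, so the size of its fold may be limited by the dim end. The graft array was therefore higher than the colon array for 1 sodium-proton exchanger and 1 anion exchanger and lower for another of each kind. Of the 7 aldosterone-responsive genes 0 were 2-fold higher, which is close to the share of 3.55% and says little by itself.

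**Figure D4:**
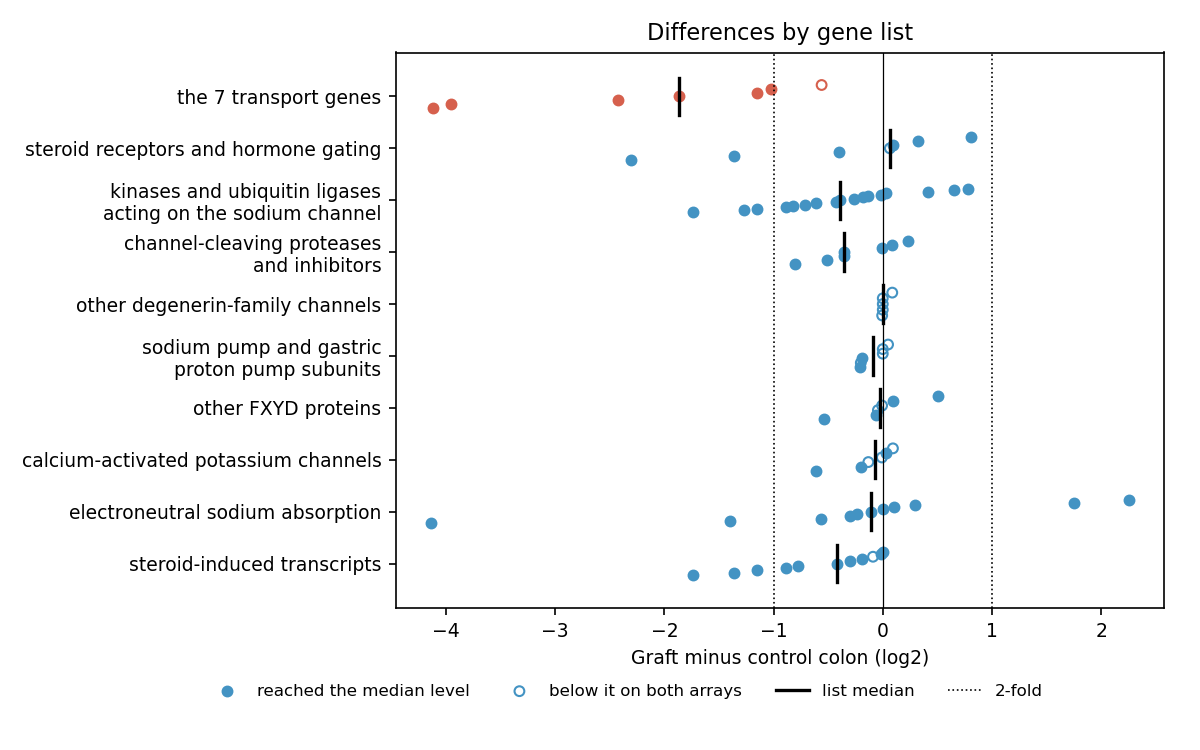
Difference between the graft and the control colon (log2, horizontal axis) for each measured gene of 10 lists (rows); filled points reached the median level on at least 1 array, open points did not, black bars are list medians and dotted lines mark 2-fold. Among the 10 plotted lists the 7 transport genes have the lowest median, -1.86, and the electroneutral absorption list spreads from -4.14 to 2.26. Cell type marker lists are not plotted, and the absorptive colonocyte markers had a lower median, -3.85.

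The genes closest to the 3 members at least 4-fold apart were found by Euclidean distance over the 2 log2 values, which with only 2 arrays describes a pair of levels and no more. Nearest to Atp12a were Ggh (distance 0.12) and Thbs4 (0.37), nearest to Fxyd4 were Thbs4 (0.23) and Sult1a1 (0.25), and nearest to Hsd11b2 were Ppy and Slco2a1 (both 0.22).

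Markers of the cells in each sample were read beside these values. Of 12 absorptive colonocyte genes, 10 (Slc26a3 among them) passed 2-fold towards lower values in the graft and 0 towards higher ones, and their summed linear level was 3181 in the graft against 17490 in the colon. Car1, Tgm3 and Cyp2c55 differed by -7.23, -5.93 and -5.64, with graft values of Car1 and Cyp2c55 below the 20th percentile and that of Tgm3 only 0.048 above it, so these sizes are limited by the dim end. Of 12 small intestinal enterocyte genes, 8 passed 2-fold towards higher values and 0 towards lower ones, with summed levels of 10018 and 846, and Fabp1, Apoa4 and Alpi differed by 5.67, 5.61 and 5.60. The colon values of Fabp1 and Alpi lay below the 20th percentile, with the same limit. Both lists went with the labels of the samples, and the colonocyte list lay in the same direction as the transport genes. Its part in their difference was not tested. Of 12 general epithelial genes, 0 passed 2-fold, with summed levels of 15970 and 14311, and Krt18, Cdx2 and Cldn3 differed by 0.91, 0.82 and -0.71. Of 10 fibroblast and smooth muscle genes 1 was lower (Lum, -1.76), with Dcn and Acta2 at -0.62 and -0.60 and summed levels of 682 and 951. Of 6 endothelial genes 1 was higher (Egfl7, 1.23), with Esam and Pecam1 at 0.31 and -0.29 and summed levels of 222 and 187, and 5 of the 6 were below the median level on both arrays. Of 9 leukocyte genes 0 passed 2-fold, with Ptprc, C1qb and Cd68 at 0.78, 0.73 and 0.55 and summed levels of 453 and 386, and 5 of the 9 were below that level on both arrays.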

How the data were processed

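The authors deposited 1 log2 expression value for each of 24074 probe sets on 2 arrays. How they computed and normalized it is not given in the sources used. The log2 scale is inferred from ranges of 4.19 to 13.37 (graft) and 4.22 to 13.46 (colon), with medians of 5.44 and 5.43. The RNA, 4.33 ng of each sample per the labels' protocols, was amplified before labelling, which can distort single transcripts. The platform's annotation names 1 gene for 18904 probe sets, and the brightest by mean stood for each gene. The number of arrays limits the precision. Differences are graft minus colon without further normalization, computed with Python 3.11.15, pandas 2.3.3 and numpy 2.4.6, and the counting was tested on simulated data. With 1 array per group no test was made; 2-fold was the threshold. Members and gene lists were chosen with earlier results of these data known. Named genes are the 7 members, up to 4 genes of each pathway list with the largest absolute difference at the median level, up to 2 in the opposite direction, 9 anchors, and 3 of each marker list. Alternatives were the probe set summary, quantile normalization, median centring, a linear pseudocount of 16, the filter and the threshold.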

Additional observations from a re-analysis of the deposited data

How the results depend on the processing

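All 7 transport genes stayed lower in the graft under quantile normalization, median centring and a linear pseudocount of 16. These settings say little about direction. A pseudocount cannot reverse a difference, and centring shifts all genes alike between arrays whose medians were 5.44 and 5.43. Quantile normalization moved the values little, so the settings bear on the size of the differences. Of the 21 member values so obtained, 20 moved by less than the SD of 0.48 between probe sets, and that of Fxyd4 moved to -3.43 with the pseudocount. The count of members at least 2-fold lower was 6, and it was 5 with quantile normalization, 4 with the pseudocount, which takes out Scnn1g (-0.81) and Sgk1 (-0.84), and 3 at a 4-fold threshold. Among the genes that reached the median level 533 were lower and 333 higher at 2-fold, with 129 and 103 at 4-fold and 1368 and 791 at 1.5-fold. The number higher was 171 among genes whose colon value reached the median level, an alternative chosen after seeing the data. None of the 223 alternative values of other pathway genes moved by the SD, but 12 of the 96 alternative list counts moved by over 1.5 times, 11 of them at the 4-fold or 1.5-fold threshold. The 3 kinase-list genes lower became 1 with the pseudocount and 0 at 4-fold, and the 3 steroid-induced genes became 2 and 0. Each of the 7 genes has 1 probe set in the table used here, so other probe sets and their mean could not be run for them. Signal over background limits Scnn1b and Scnn1g, whose graft values lay below the 20th percentile. It may also limit the sizes for Atp12a and Fxyd4, whose graft values lay only 0.64 and 0.33 above it.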

Other observations

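The chromosomal neighbours of the 7 transport genes were read after the data were seen, with the nearest measured gene on each side in RefSeq order (GRCm38.p6, used for order only). Scnn1g and Scnn1b neighbour each other. Of the 12 other neighbours, 0 were 2-fold apart between the arrays. Over all genes 3.09% were lower and 1.93% higher by 2-fold, so a 0 among 12 is close to those shares and says little. The differences of the 12 ran from -0.61 for Usp31, next to Scnn1g, to 0.12 for Gzmb, next to Atp12a, with a median of -0.16. Of these 12, 6 stayed below the median level on both arrays. Cog7, on the other side of Scnn1b, differed by -0.18, and the genes on either side of Scnn1a, Ltbr and Tnfrsf1a, by -0.22 and -0.48.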
